A study of Mus musculus with 200 samples.

Results

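The Hedgehog pathway genes described here are the 9 genes Gli1, Gli2, Gli3, Ptch1, Smo, Hhip, Shh, Boc and Sufu, taken by symbol from a table of 56941 genes. They were chosen by their CHI against sham values in these same mice, as a pathway in which several genes differed after CHI. RNA of one hemisphere per mouse was sequenced for 200 mice after closed head injury (CHI, a single impact on the midline of the intact skull) or sham surgery (anaesthesia and scalp incision without impact, n = 67). Brains were collected at 9, 24 or 72 h from C57BL/6J mice and from 3 strains whose labels add gKO, eRestore or nRestore to the name IL-1R1, which gives 24 groups of 4 to 15 mice, aged 3.3 to 7.67 months, with both sexes in all groups but the male IL-1R1 nRestore mice at 72 h. The C57BL/6J groups held 15, 14 and 14 CHI mice and 6 sham mice at each time, and the smallest groups were those of IL-1R1 nRestore mice. The sources used here do not spell out gKO, eRestore or nRestore, nor name a promoter or Cre line.

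Il1r1, the interleukin-1 receptor that the strain names refer to, was higher in the mice labelled IL-1R1 gKO than in C57BL/6J mice. Group medians were 7.56 to 10.9 CPM (gene counts scaled to library size with TMM factors) in the former and 3.66 to 7.11 in the latter, a log2 difference of 0.90 ± 0.07 (SE; edgeR quasi-likelihood test, adjusted p = 1.41e-25). The difference was 0.59 ± 0.07 in the mice labelled IL-1R1 eRestore and 0.80 ± 0.08 in those labelled IL-1R1 nRestore. Gene totals do not show which exons were read, and strains are therefore given below as labelled. Total estimated counts per mouse ran from 14857985 to 57355676. Neuronal, astrocyte and oligodendrocyte markers were high in every library (summed levels from 4097, 4615 and 2838 CPM upwards), whereas the 5 choroid plexus markers summed to between 4.05 and 3544 CPM. The labels assign the mice to 8 experiments, and the 3 experiments of the 9 h mice hold no mice of later times.

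Hedgehog ligands such as Shh are lipid-modified secreted proteins. In their absence Ptch1, the receptor, keeps the membrane protein Smo inactive. Ligand binding frees Smo, which acts at the primary cilium to release the Gli transcription factors from Sufu, the inhibitor that holds them in the cytoplasm. Gli1, Ptch1 and Hhip are themselves transcribed in response, so Gli1 is widely read as a sign of pathway output, and Ptch1 and Hhip act as feedback inhibitors. In adult brain, neurons are a known source of Shh, and Gli1 is known from a subset of astrocytes and from neural stem cells.

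The sequences just upstream of the canonical transcript starts of Gli1 and Ptch1 are shown because these were the members that stood higher after CHI at 24 h in C57BL/6J mice. Both are the 250 bases before the start of the canonical transcript on GRCm39, 5′ to 3′ on the strand of the gene, which is the minus strand for both. Capitals mark a match to GACCACCCA, the 9-letter site classically bound by Gli proteins, on either strand.
Gli1, chr10:127177866-127178115: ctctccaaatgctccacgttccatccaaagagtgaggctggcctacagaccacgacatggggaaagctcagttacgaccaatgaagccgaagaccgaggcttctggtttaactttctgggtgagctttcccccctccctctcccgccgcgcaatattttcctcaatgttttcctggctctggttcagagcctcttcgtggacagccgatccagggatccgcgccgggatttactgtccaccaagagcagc
Ptch1, chr13:63714093-63714342: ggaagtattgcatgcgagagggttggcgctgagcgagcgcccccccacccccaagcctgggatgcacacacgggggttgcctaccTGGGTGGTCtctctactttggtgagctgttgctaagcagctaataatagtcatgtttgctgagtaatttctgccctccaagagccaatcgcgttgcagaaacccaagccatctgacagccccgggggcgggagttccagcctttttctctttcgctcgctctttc
The Ptch1 stretch holds the 9 letters on the opposite strand, upstream of the canonical start, and the Gli1 stretch does not hold them. The annotated Ptch1 gene reaches further upstream than this start, so its stretch lies within the span of the gene. Over windows from 250 bases before to 50 after the start, they occurred in 44 of 21770 protein-coding genes (0.202%), and Ptch1 was the only member among them. A match in these letters is a description of the sequence, and binding was not measured.

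In annotation GENCODE vM39, Gli1 lies at chr10:127165751-127177865 with 13 exons and Ptch1 at chr13:63656142-63721412 with 23 exons. Also on the minus strand are Gli2 (chr1:118761858-118982598), Hhip (chr8:80692480-80784658), Shh (chr5:28661813-28672254) and Boc (chr16:44305290-44379432). Gli3 (chr13:15637809-15904611), Smo (chr6:29735407-29762532) and Sufu (chr19:46385324-46477243) lie on the plus strand. All 9 are protein-coding. Strand use in the counting is not given in the sources used here, so reads of overlapping genes on opposite strands cannot be told apart. This concerns 22.55% of the exon bases of Shh, shared with 9530036O11Rik, 5.75% of those of Gli3, shared with Gm6556, and 6.5% and 2.53% of those of Gli1, shared with Gm47200 and Arhgap9. Smaller shares, of 0.21% to 2.09% for each overlapping gene, concern Gli2, Hhip and Boc.

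Levels of different genes were compared per transcript length, as TPM, the authors' length-scaled unit, in the 18 sham C57BL/6J mice. Ptch1 had the highest level (median 19.6 TPM, range 14.7 to 27.2), and in all 18 mice it was above Boc, the next gene (7.50, 5.85 to 9.59). The ranges of Ptch1 and Boc did not overlap. Smo (median 6.61 TPM) and Sufu (6.54) followed closely. Hhip (3.42 TPM), Shh (3.24) and Gli3 (3.22) had medians close to each other, and Hhip exceeded Shh in 12 of 18 mice. Gli2 (1.23 TPM) and Gli1 (0.725, range 0.428 to 1.33) were lowest. From Boc downwards, the ranges of every pair of neighbours in this order overlapped. Over all 67 sham mice, Smo and Boc changed places, as did Gli3 and Shh.

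The contrast of CHI with sham asks which genes respond to the injury. The members were chosen with this contrast in view, so their values in it are a description and carry no test. A gene is called here when its adjusted p over all genes tested is under 0.05 in edgeR's quasi-likelihood test, fitted with terms for sex and age. In C57BL/6J mice at 24 h, Gli1 and Ptch1 were called higher, and at 9 h Ptch1, Hhip and Boc were called lower. No other comparison called a member.

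**Figure D1:**
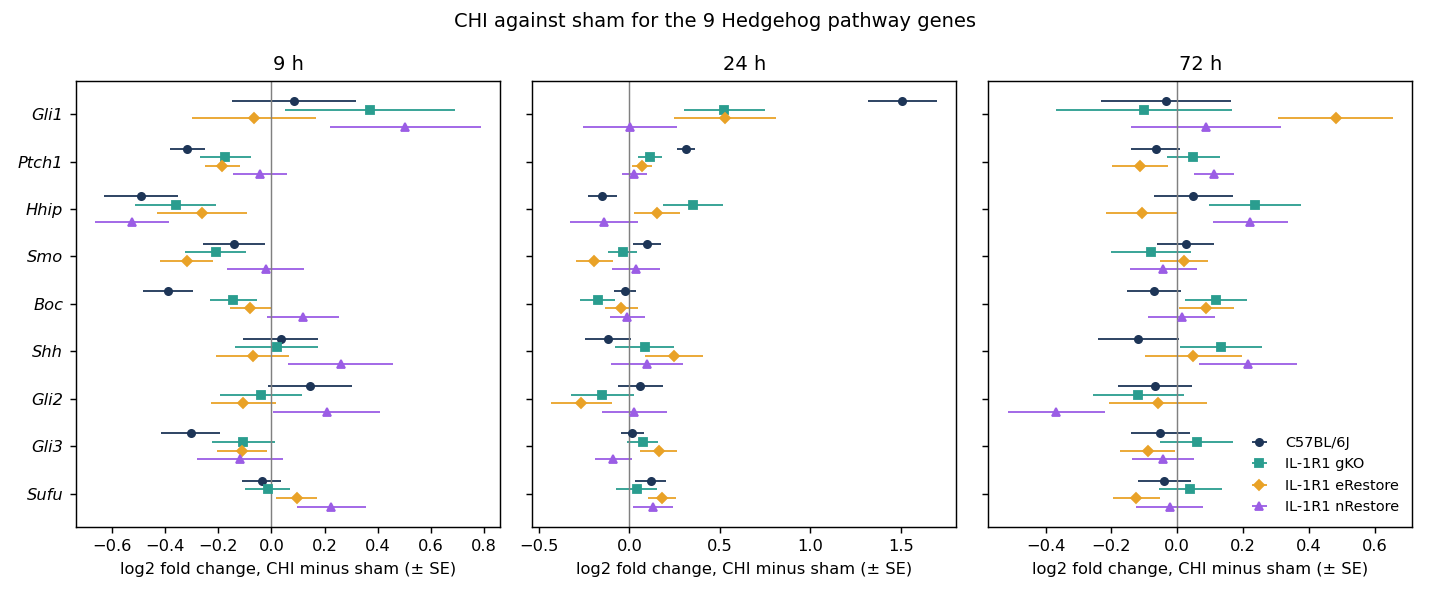
Log2 fold change of CHI against sham (x axis; symbols with bars of ± 1 SE) for the 9 genes (y axis) at 9, 24 and 72 h, with a symbol for each strain and a different x scale in each panel. Gli1 in C57BL/6J mice at 24 h (1.51) lies farthest from 0, and at 9 h the Hhip values of all 4 strains (-0.26 to -0.52) lie left of 0.

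Gli1, the transcription factor whose own transcription follows pathway activity, was 2.85 times its sham level at 24 h in C57BL/6J mice. The 14 CHI mice had 2.18 to 5.98 CPM (median 3.58), and the 6 sham mice had 1.16 to 1.52 CPM (median 1.38). Every CHI mouse lay above every sham mouse. The share of all genes whose groups do not overlap was not counted in any comparison, so nothing is read from such separation. The log2 fold change was 1.51 ± 0.19 (SE), which gives a 95% interval of 2.15 to 3.77 for the fold (t distribution, 16 residual degrees of freedom). These levels rest on 44 to 135 estimated reads per CHI mouse and 23 to 33 per sham mouse. At 24 h in this strain, 0.404% of the 16577 genes tested were called (0.229% higher), and Gli1 and Ptch1 made 2 of the 9 members. Nothing is read from that share, since the members were chosen in this contrast.

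The same values, split by sex and by experiment, had the same order in each part, which is a description and no further test. The 8 female CHI mice had a median of 3.25 CPM Gli1 (lowest 2.49) against 1.36 in 3 female sham mice (highest 1.39). Medians were 3.98 CPM in 6 male CHI mice (lowest 2.18) and 1.40 in 3 male sham mice (highest 1.52). The C57BL/6J mice of 24 h came from 3 experiments, and in each of them all CHI mice (5, 2 and 7) exceeded all sham mice (1, 2 and 3). Differences of mean log2 CPM within these experiments were 1.19, 1.05 and 1.56. Across the 13 alternative analyses of this comparison, the log2 fold change lay between 1.45 and 1.59 and Gli1 was called in all 13.

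At 9 and 72 h the Gli1 levels of C57BL/6J CHI and sham mice overlapped. The 15 CHI mice of 9 h had 0.725 to 2.43 CPM (median 1.26) and the 6 sham mice had 1.01 to 2.08 (median 1.08), with a log2 fold change of 0.09 ± 0.23. At 72 h the medians were 1.78 CPM after CHI and 1.86 after sham surgery (-0.03 ± 0.20). Mice of different times are different animals.

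In the other strains at 24 h, Gli1 levels of CHI and sham mice overlapped. The mice labelled IL-1R1 gKO had 1.14 to 3.71 CPM after CHI (median 2.28, n = 12) and 1.13 to 2.36 after sham surgery (median 1.58, n = 6), a log2 fold change of 0.52 ± 0.23. Of these 12 CHI mice, 5 lay above all sham mice, and with DESeq2 and gene-length offsets the value was 0.18. In the mice labelled IL-1R1 eRestore, the 9 CHI mice had 1.48 to 3.52 CPM (median 2.20) and the 5 sham mice had 1.13 to 2.11 (median 1.83), with a log2 fold change of 0.53 ± 0.28. Here 5 of 9 CHI mice exceeded the highest sham mouse.

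In the mice labelled IL-1R1 nRestore, the Gli1 levels of both groups overlapped as well at 24 h. Their 8 CHI mice had 1.20 to 2.52 CPM (median 1.79), and their 5 sham mice had 1.15, 1.24, 1.53, 1.72 and 2.51. The log2 fold change was 0.00 ± 0.26, and it lay between -0.23 and 0.26 across the 12 alternative analyses of this comparison. Set against C57BL/6J in a single fit of all mice, the Gli1 effect of CHI at 24 h was smaller by 0.90 ± 0.33 (log2, SE) in the mice labelled IL-1R1 gKO. The corresponding values were -0.98 ± 0.36 for eRestore and -1.22 ± 0.36 for nRestore. These differences between strains come from the contrast by which members were chosen and were not tested.

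Experiments were unevenly spread over the groups of these strains at 24 h. One experiment gave 5 of 12 CHI mice labelled gKO, 4 of 9 labelled eRestore and 4 of 8 labelled nRestore, but none of their sham mice. Counting each strain within each experiment that held both groups, Gli1 was higher after CHI in 6 of 7 such pairs at 24 h, by -0.08 to 1.56 (log2). The one pair with the opposite sign was that of the mice labelled IL-1R1 nRestore. Such pairs split the values by which the members were chosen and add no test. At 72 h, Gli1 in the mice labelled IL-1R1 eRestore had a log2 fold change of 0.48 ± 0.18, with 4 of 12 CHI mice above all 6 sham mice.

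**Figure D2:**
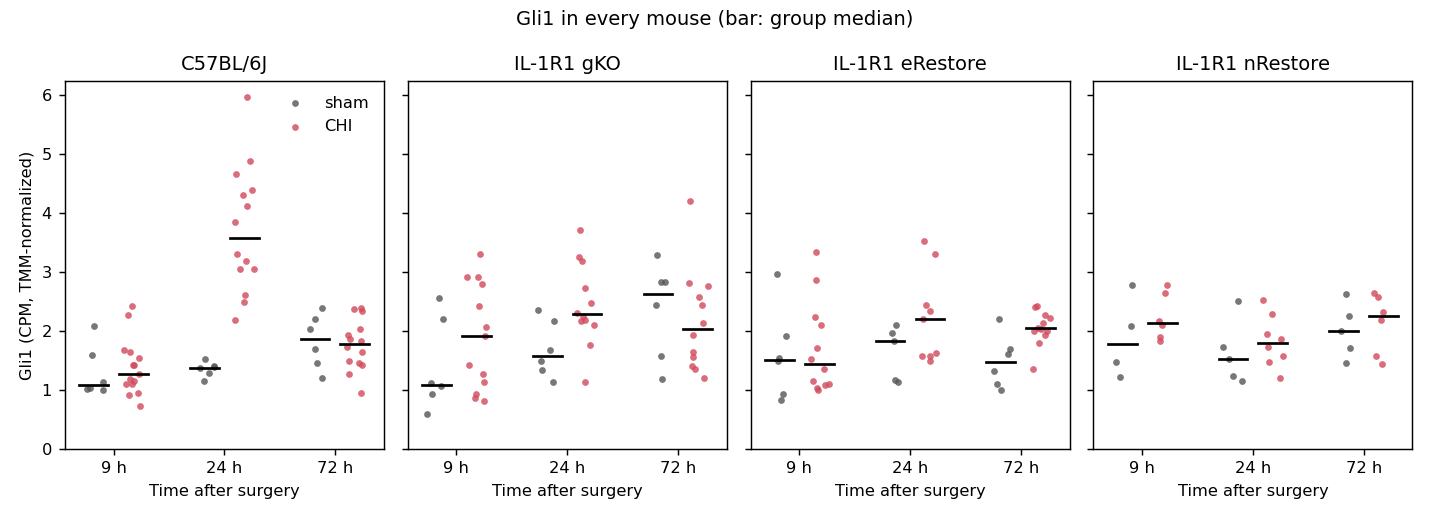
Gli1 level (y axis, CPM) of every mouse by time after surgery (x axis) in the 4 strains; each point is a mouse, grey for sham and red for CHI, and bars are group medians. The 14 C57BL/6J CHI mice of 24 h (2.18 to 5.98 CPM) all lie above their 6 sham mice, and the groups overlap everywhere else.

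Ptch1, receptor and feedback inhibitor, also stood higher after CHI at 24 h, by less than Gli1 did. The 14 C57BL/6J CHI mice had 77.4 to 101.4 CPM (median 85.3) and the 6 sham mice 67.2 to 75.4 (median 72.1). As for Gli1, the groups did not overlap, and the share of all genes for which this holds was not counted. The log2 fold change was 0.31 ± 0.05 (1.24-fold, 95% interval 1.15 to 1.33). In the mice labelled gKO, eRestore and nRestore it was 0.11 ± 0.07, 0.07 ± 0.06 and 0.03 ± 0.07, and the groups overlapped in each. Within the 3 C57BL/6J experiments the differences of mean log2 CPM were 0.08, 0.35 and 0.38, the smallest of them resting on 1 sham mouse.

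At 9 h Ptch1 was lower after CHI. In C57BL/6J mice, CHI levels were 45.1 to 61.2 CPM (median 53.1) and sham levels 54.8 to 72.4 (median 69.7), and 9 of 15 CHI mice lay below all sham mice. The log2 fold change was -0.32 ± 0.07. It was -0.17 ± 0.09 in the mice labelled gKO, -0.18 ± 0.07 in eRestore and -0.04 ± 0.10 in nRestore. Ptch1 was lower after CHI in 8 of 8 strain and experiment pairs at 9 h (-0.36 to -0.07). These pairs only split the values by which the members were chosen, and some hold 2 sham mice. The share of all genes with one sign in every pair was not counted. Thus Ptch1 in C57BL/6J mice stood below sham at 9 h, above it at 24 h and near it at 72 h (-0.07 ± 0.07).

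**Figure D3:**
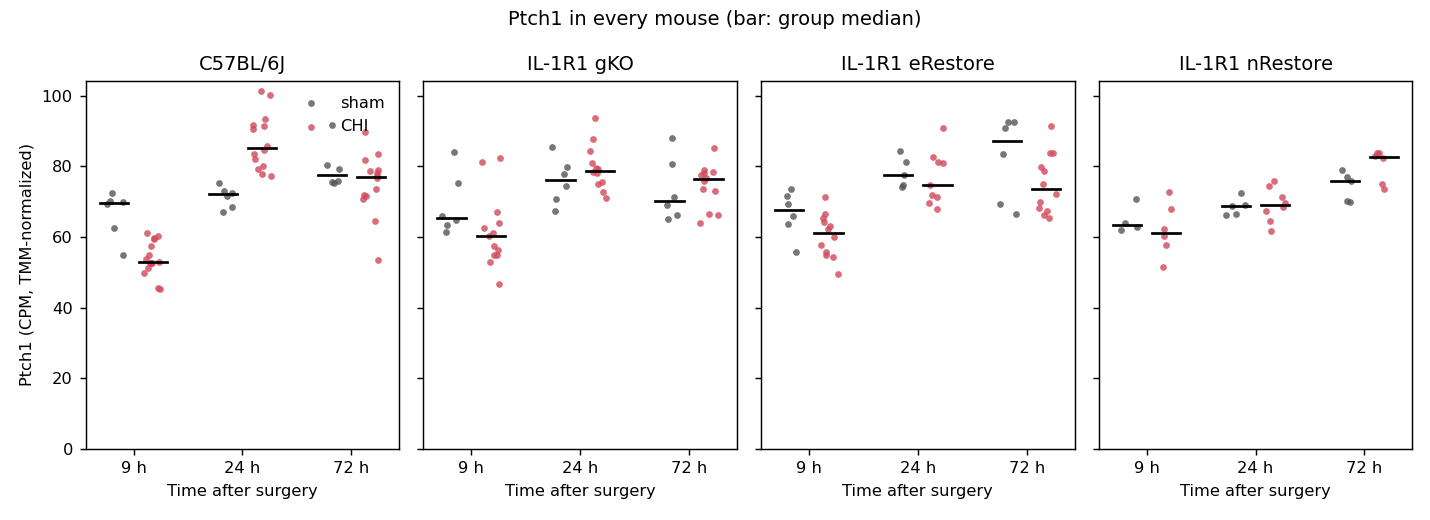
Ptch1 level (y axis, CPM) of every mouse by time after surgery (x axis) in the 4 strains; each point is a mouse, grey for sham and red for CHI, and bars are group medians. In C57BL/6J mice the CHI median is below the sham median at 9 h (53.1 and 69.7) and above it at 24 h (85.3 and 72.1).

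Hhip, the decoy that binds Hedgehog ligands at the cell surface, was lower after CHI at 9 h. C57BL/6J CHI mice had 5.80 to 13.6 CPM (median 9.74) and sham mice 9.86 to 16.8 (median 14.2), a log2 fold change of -0.49 ± 0.14 with 8 of 15 CHI mice below all sham mice. In the mice labelled IL-1R1 nRestore, all 6 CHI mice (9.13 to 14.1 CPM) lay below the 4 sham mice, which had 14.5, 15.1, 15.2 and 20.3 CPM. That value was -0.52 ± 0.14, and it was not called. With groups this small, and the share of all genes without overlap not counted, nothing is read from the separation. The mice labelled gKO (-0.36 ± 0.15) and eRestore (-0.26 ± 0.17) had overlapping groups. Within experiments Hhip was lower after CHI in 8 of 8 pairs (-0.80 to -0.12), which again only splits the values of the chosen contrast.

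The call of Hhip depended on single sham mice. In C57BL/6J it was lost when sham replicate 1, 4 or 5 was left out, with log2 fold changes between -0.47 and -0.41, and in nRestore the value was -0.34 without sham replicate 3. In contrast to Gli1 and Ptch1, Hhip was not higher at 24 h in C57BL/6J mice. CHI levels were 13.7 to 21.1 CPM and sham levels 15.4 to 20.8 (-0.15 ± 0.08). The mice labelled gKO had a value of 0.35 ± 0.17 at that time, with 13.8 to 22.5 CPM after CHI and 8.21 to 19.9 after sham surgery.

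**Figure D4:**
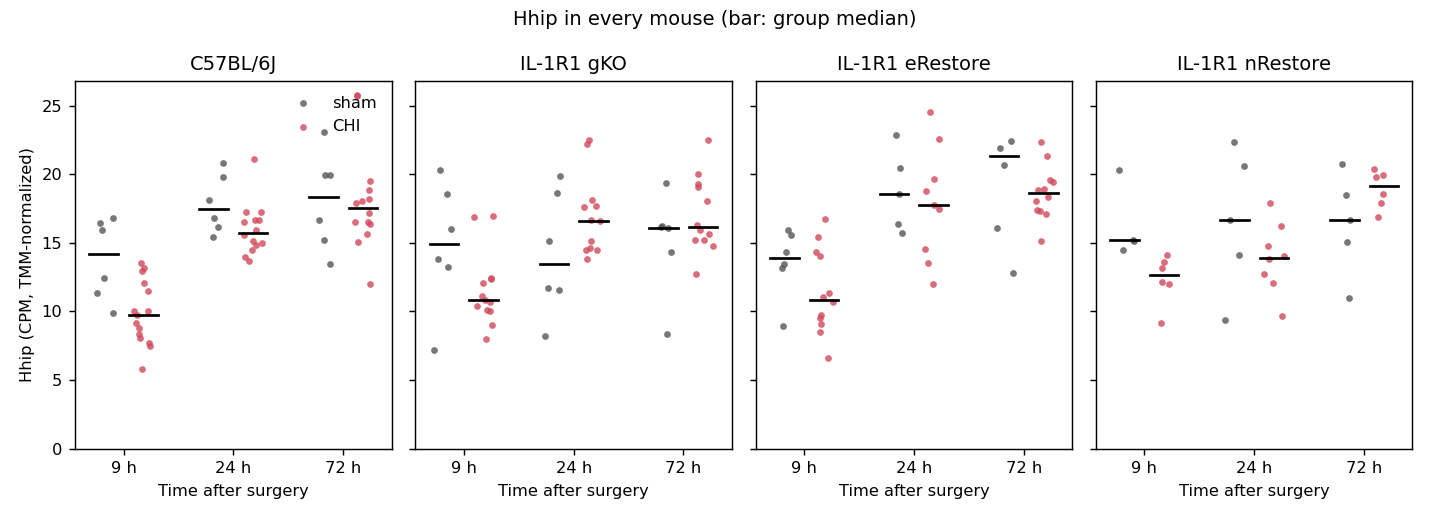
Hhip level (y axis, CPM) of every mouse by time after surgery (x axis) in the 4 strains; each point is a mouse, grey for sham and red for CHI, and bars are group medians. At 9 h the CHI median is below the sham median in each strain, for example 9.74 and 14.2 CPM in C57BL/6J mice.

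Boc, a co-receptor that helps Ptch1 bind ligand, was lower at 9 h in C57BL/6J mice. CHI levels were 11.2 to 19.8 CPM (median 15.5) and sham levels 17.8 to 22.5 (median 19.8), so that 14 of 15 CHI mice lay below all sham mice. The log2 fold change was -0.39 ± 0.09. Boc was -0.14 ± 0.09 in the mice labelled gKO, -0.08 ± 0.08 in eRestore and 0.12 ± 0.13 in nRestore. At 9 h in C57BL/6J mice 14.1% of the 16967 genes tested were called (7.00% lower), and 3 of the 9 members were called, all lower, from which nothing is read.

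Smo, the signal transducer, was not called in any comparison, and its largest value was -0.32 ± 0.10 in the mice labelled IL-1R1 eRestore at 9 h. Their CHI mice had 8.90 to 12.9 CPM and their sham mice 11.3 to 17.1. DESeq2, both with its own size factors and with gene-length offsets, called this value. In C57BL/6J mice Smo was -0.14 ± 0.12, 0.10 ± 0.08 and 0.03 ± 0.09 at 9, 24 and 72 h.

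The ligand gene Shh did not accompany Gli1 at 24 h. C57BL/6J CHI mice had 2.61 to 5.55 CPM Shh (median 4.06) and sham mice 3.89 to 5.33 (median 4.42), a log2 fold change of -0.12 ± 0.13. Over all strains and times the Shh values ran from -0.12 to 0.26, and the groups overlapped in each comparison.

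Among the remaining transcription factors and their inhibitor, Gli3, which acts mainly as a repressor, was -0.30 ± 0.11 at 9 h and 0.02 ± 0.06 at 24 h in C57BL/6J mice. At 9 h the 15 CHI mice had 7.63 to 11.3 CPM Gli3 and the 6 sham mice 6.84 to 14.3, and the groups overlapped. Gli2, the main activator, was 0.15 ± 0.16 and 0.06 ± 0.12 at those times. Its most negative value was in the mice labelled IL-1R1 nRestore at 72 h (-0.37 ± 0.15, 3.08 to 4.64 CPM after CHI, against 4.00, 4.19, 4.47, 5.33 and 5.94 in sham mice). Sufu was -0.04 ± 0.07 and 0.12 ± 0.08 in C57BL/6J mice at 9 and 24 h.

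In the 10 comparisons in which edgeR called 0 of 9 members, 0 to 2 members had an unadjusted p under 0.05. DESeq2 with its own size factors called 1 of them in each of a pair of these comparisons, Smo in eRestore mice and Hhip in nRestore mice, both at 9 h. Over all genes, edgeR called 0.199%, 0.00590% and 0% in the mice labelled gKO at 9, 24 and 72 h. The shares were 7.34%, 0% and 0.00605% in eRestore and 0.608%, 0% and 0.0121% in nRestore, and 0% in C57BL/6J mice at 72 h. The median of the 9 log2 fold changes was -0.14 at 9 h and 0.06 at 24 h in C57BL/6J mice, beside -0.01 and -0.00 over all genes tested.

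Averaged over the 4 strains with equal weights, Gli1 was higher after CHI by 0.70 ± 0.13 (log2) at 24 h, with 0.21 ± 0.13 at 9 h and 0.10 ± 0.12 at 72 h. For Ptch1 these means were 0.13 ± 0.04 at 24 h, -0.17 ± 0.04 at 9 h and -0.02 ± 0.04 at 72 h. Hhip averaged -0.36 ± 0.08 at 9 h and 0.03 ± 0.08 at 24 h.

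Bulk tissue does not tell fewer cells of a type from less RNA per cell. Cell type marker lists were therefore set beside the results in C57BL/6J mice. At 24 h, 1 of 9 astrocyte markers was called higher (Agt) and 1 of 3 mural markers lower (Rgs5), and no marker of the oligodendrocyte, OPC, neuron, microglia, endothelial, ependymal or neuroblast lists was called. Of all genes tested, 0.404% were called at that time, and nothing is read from these marker counts. Summed astrocyte markers were 5083 to 6373 CPM after CHI and 5187 to 6041 after sham surgery. Ependymal markers summed to 8.41 to 14.2 and 7.77 to 13.0 CPM, mural markers to 120.9 to 148.9 and 136.2 to 170.2, and fibroblast and meningeal markers to 23.9 to 63.2 and 24.6 to 39.2. Choroid plexus markers spanned 11.9 to 630.7 CPM after CHI and 14.6 to 28.0 after sham surgery. The part of these levels in the higher Gli1 and Ptch1 was not tested.

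At 9 h, 14.1% of all genes tested were called in C57BL/6J mice, and nothing is read from the counts of markers below. Lower after CHI were 3 of 5 microglia markers (P2ry12, Tmem119 and Aif1). Their list summed to 115.7 to 199.7 CPM after CHI and 162.9 to 279.6 after sham surgery. The list named Purkinje summed to medians of 117.3 and 169.3 CPM, with Calb1 lower. Only 2 of its 3 genes had enough counts to be tested, and Pcp2 was at 0 in some mice of the series. Its sum is therefore not read as a measure of Purkinje cells. Neuroblast markers summed to 37.5 to 53.8 and 46.4 to 69.1 CPM, with Dcx lower. Higher were 2 of 9 astrocyte markers (Gfap and Aldh1l1), 2 of 3 mural markers (Pdgfrb and Kcnj8) and 1 of 2 OPC markers (Pdgfra). The neuronal marker Tubb3 was lower, and 2 of 4 endothelial markers, Pecam1 and Flt1, were called in opposite directions. The part of these shifts in the lower Ptch1, Hhip and Boc levels was not tested. Arhgap9, which overlaps the end of Gli1, had a log2 fold change of 0.17 ± 0.30 at 24 h in C57BL/6J mice (0.163 to 1.44 CPM after CHI, 0.509 to 1.05 after sham surgery). Values of Gm47200, which shares 6.5% of the exon bases of Gli1 beside 2.53% for Arhgap9, are not given here. The part of reads from overlapping genes in the Gli1 level was not tested.

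Strains and sexes were compared in a single fit of all 200 mice, with CHI and sham mice given equal weight. Since the mice that served in the choice of members enter these averages, the same strain contrasts over the sham mice alone are given beside them. They were added after the data were seen. The sham mice served in the choice as well, so the contrasts over sham mice alone are not free of it. Gli3 was higher than in C57BL/6J mice in all 3 other strains, by 0.10 ± 0.04 (log2 ± SE) in gKO, 0.18 ± 0.04 in eRestore and 0.12 ± 0.04 in nRestore (edgeR adjusted p = 0.0484, 7.37e-05 and 0.0141). Median levels of Gli3 were 12.4 CPM in C57BL/6J mice and 13.1, 13.6 and 13.8 CPM in these strains, with ranges that overlapped. Smo was higher in the mice labelled gKO (0.13 ± 0.04, edgeR adjusted p = 0.0103) and Sufu in those labelled eRestore (0.15 ± 0.03, adjusted p = 0.000184). Over the sham mice alone, the Gli3 differences were 0.04 ± 0.06, 0.15 ± 0.06 and 0.08 ± 0.07, that of Smo was 0.17 ± 0.07 and that of Sufu 0.14 ± 0.05, and none of these was called.

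Shh and Boc were lower in the mice labelled IL-1R1 nRestore. Shh differed by -0.23 ± 0.06 (edgeR adjusted p = 0.00212), with a median of 3.95 CPM in 34 nRestore mice and 4.44 in 61 C57BL/6J mice. Boc differed by -0.14 ± 0.04 (edgeR adjusted p = 0.00126). In sham mice alone both were called, Shh at -0.28 ± 0.10 (edgeR adjusted p = 0.0434) and Boc at -0.25 ± 0.06 (0.00100). Mean Boc in the C57BL/6J sham mice was 19.9, 16.6 and 16.8 CPM at 9, 24 and 72 h. Those of 9 h are the sham mice against which Boc was called lower after CHI. When age was replaced by experiment in the fit of all mice, the 3 calls of Gli3, Shh and Boc in nRestore mice were lost. Gli3 kept its size (0.12 ± 0.05, edgeR adjusted p = 0.140), whereas Shh was -0.10 ± 0.08 (0.539) and Boc -0.08 ± 0.05 (0.335). Ptch1, which the main fit did not call, was called lower under that setting (edgeR adjusted p = 0.0437). In all, 2, 2 and 3 of 9 members were called in gKO, eRestore and nRestore, where 22.1%, 22.3% and 34.4% of all genes were called. Those shares are near to the background. In sham mice alone, edgeR called 0, 0 and 2 members, beside 5.75%, 5.38% and 15.6% of all genes, with 2, 4 and 2 members at an unadjusted p under 0.05. DESeq2 was not run on that contrast. Gli1 itself did not pass the test in any strain (0.15 ± 0.10, 0.01 ± 0.10 and 0.13 ± 0.11).

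Times after surgery were compared in the same fit. The CHI and sham values that chose the members make up these averages, so they are a description without a test. At 24 h minus 9 h the log2 differences were 0.45 ± 0.06 for Hhip, 0.34 ± 0.04 for Gli3, 0.31 ± 0.03 for Ptch1, 0.28 ± 0.11 for Gli1 and 0.25 ± 0.04 for Smo. Boc (-0.12 ± 0.04) and Sufu (-0.10 ± 0.04) had negative values. Over the sham mice alone, Gli1 was at 0.03 ± 0.15. Sham values were also smaller than the average for Ptch1 (0.17 ± 0.05), Hhip (0.26 ± 0.09), Gli3 (0.25 ± 0.06) and Smo (0.18 ± 0.06), and those of Boc (-0.15 ± 0.05) and Sufu (-0.11 ± 0.05) were similar to it. Median Hhip was 12.1 CPM in the 68 mice of 9 h, 16.3 in the 65 mice of 24 h and 17.9 in the 67 mice of 72 h.

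At 72 h minus 9 h the differences were 0.60 ± 0.08 for Hhip, 0.38 ± 0.05 for Gli3, 0.36 ± 0.04 for Ptch1, 0.30 ± 0.05 for Smo and 0.17 ± 0.07 for Gli2. In sham mice alone they were 0.39 ± 0.10, 0.33 ± 0.07, 0.28 ± 0.05, 0.22 ± 0.07 and 0.29 ± 0.10. Calls numbered 7 of 9 at 24 h and 5 of 9 at 72 h against 9 h, beside 61.7% and 55.4% of all genes. Of these calls 5 were higher in each contrast, beside 32.8% and 29.3% of all genes, and 2 were lower at 24 h, beside 28.9%. In sham mice 5 and 6 were called, beside 43.9% and 39.5%, and nothing is read from these counts. No member was called at 72 h against 24 h by edgeR or by DESeq2 (3.66% of all genes; 2 members, Hhip and Sufu, had an unadjusted p under 0.05), nor in sham mice by edgeR (0.0547%; 2 members, Ptch1 and Sufu, had an unadjusted p under 0.05). The mice of 9 h came from experiments of their own, so the time and the experiment cannot be told apart in the contrasts with 9 h. Time of day is a further difference that cannot be told apart there. The study's methods, written for its C57BL/6J mice, place all surgery in the morning, so tissue of 9 h was collected at another time of day. They name this as a possible source of variation.

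**Figure D5:**
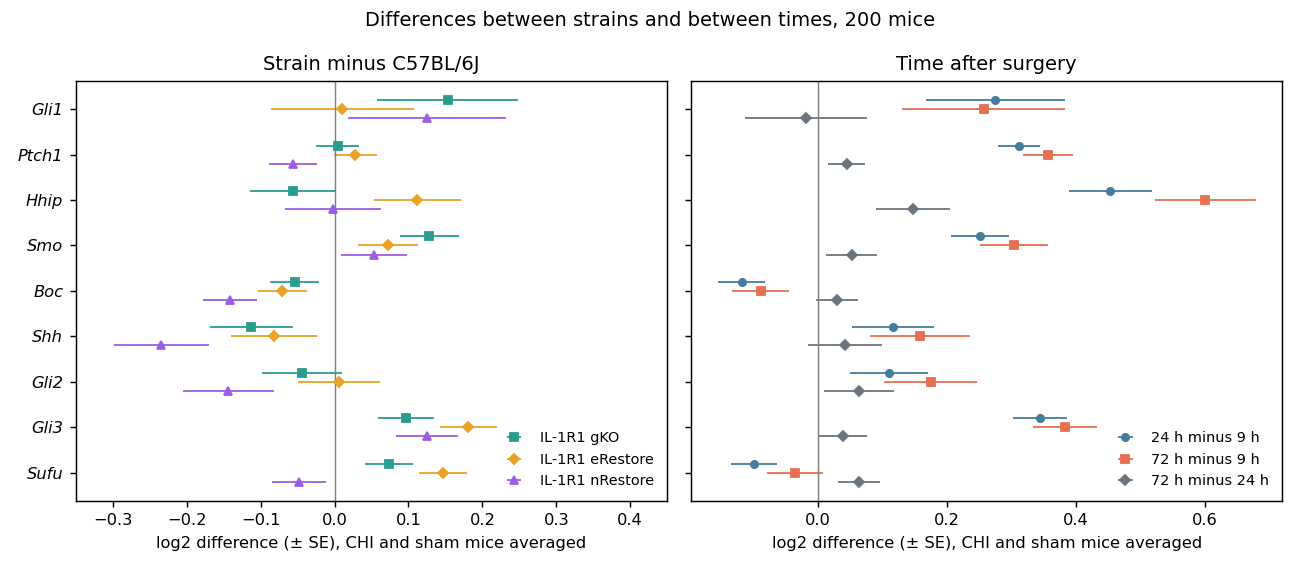
Log2 differences (x axis; symbols with bars of ± 1 SE) of the 9 genes (y axis), with CHI and sham mice averaged: each strain minus C57BL/6J on the left, and differences between times on the right, with a different x scale in each panel. Gli3 lies right of 0 for all 3 strains (0.10 to 0.18), and Hhip has the largest differences from 9 h (0.45 at 24 h, 0.60 at 72 h); the time differences carry no test.

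Males and females did not differ in a member past the threshold. With edgeR 0 of 9 members were called for sex (0.363% of all genes) and 0 of 9 for a CHI effect that depends on sex (0.00497%), and DESeq2 called none in either. In each of these, 1 member had an unadjusted p under 0.05, Hhip for sex (0.10 ± 0.04, males higher) and Sufu for the CHI effect (-0.11 ± 0.05). The CHI effect on Gli1 differed between males and females by 0.03 ± 0.15.

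Of 41 other genes of the pathway that were listed, 38 or 39 had enough counts to be tested in each comparison, and Ihh and Dhh, the other Hedgehog ligands, were in none. The list was drawn up with earlier results of these data known, so the p-values of its genes in the CHI contrasts are a description. In C57BL/6J mice at 9 h, 3 of 39 rose and 3 fell. These counts are near the share of all genes called (14.1%), and nothing is read from them. The median log2 fold change of the 39 genes was -0.05, beside -0.01 over all genes. Those that rose were Scube2, which helps to release the ligand (1.05 ± 0.23, edgeR adjusted p = 0.00266), Evc2, of a ciliary complex with which Smo acts (0.51 ± 0.12, 0.00376), and the kinase gene Csnk1a1 (0.17 ± 0.05, 0.0348). Scube2 had 0.768 to 2.37 CPM after CHI and 0.459 to 1.01 after sham surgery.

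Those that fell at 9 h were 3 of the 8 other target genes listed, beside 7.00% of all genes called lower. All 8 have other inputs too. Since the list was drawn up with earlier results known, nothing is read from this count. Mycn, a growth-promoting transcription factor, fell by 1.09 on the log2 scale (SE 0.19, edgeR adjusted p = 0.000308). Its median was 2.65 CPM after CHI and 5.96 after sham surgery, with overlapping ranges. Ccnd2, a D-type cyclin, had 48.3 to 65.6 CPM after CHI and 70.4 to 86.7 after sham surgery (-0.50 ± 0.05, edgeR adjusted p = 2.54e-07). Its groups did not overlap, and the share of all genes for which this holds was not counted. Bcl2, an inhibitor of apoptosis, changed by -0.46 ± 0.09 (edgeR adjusted p = 0.000810). The call of Csnk1a1 was lost without sham replicate 1, 2, 3, 4 or 6, while the other 5 were called whichever sham mouse was left out.

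At 24 h in C57BL/6J mice, 0 of 38 other pathway genes rose and 1 fell (0.404% of all genes). Scube1, a relative of Scube2, had 21.2 to 31.7 CPM after CHI and 29.1 to 35.8 after sham surgery (-0.33 ± 0.06, edgeR adjusted p = 0.0114). This call was lost without sham replicate 4 and in the one fit of all mice, with the log2 fold change between -0.37 and -0.29 over all alternatives. None of the 8 other target genes was called beside Gli1 and Ptch1, and the median log2 fold change of the 38 genes was -0.01. Ccnd1, a D-type cyclin, was among 3 genes with an unadjusted p under 0.05 at this time, with 48.1 to 64.9 CPM after CHI and 46.0 to 54.4 after sham surgery. It was also under 0.05 at 24 h in the mice labelled gKO and eRestore, where its medians were lower after CHI. They were 46.1 and 55.5 CPM after CHI and sham surgery in gKO, and 47.3 and 51.6 in eRestore. In nRestore they were 46.2 and 43.0.

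In the mice labelled IL-1R1 eRestore at 9 h, 3 of 38 other pathway genes rose and 2 fell (7.34% of all genes). Disp2 (0.28 ± 0.06, edgeR adjusted p = 0.0133), Ccnd1 (0.33 ± 0.09, 0.0295) and Csnk1a1 (0.20 ± 0.06, 0.0439) rose. Tulp3, which carries receptors into the cilium, fell (-0.32 ± 0.08, edgeR adjusted p = 0.0212), as did Evc, the partner of Evc2 (-0.52 ± 0.16, 0.0486). Leaving out sham replicate 1, 2, 3, 4 or 5 left 1, 1, 2, 2 and 2 of these calls, while over all alternatives the values kept their sign, with ranges of 0.18 to 0.31 for Disp2, 0.29 to 0.39 for Ccnd1, 0.16 to 0.23 for Csnk1a1, -0.38 to -0.25 for Tulp3 and -0.58 to -0.38 for Evc.

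In the remaining 9 comparisons edgeR called 0 of the other pathway genes, with 0 to 6 at an unadjusted p under 0.05. DESeq2 with its own size factors called 2 in the mice labelled IL-1R1 nRestore at 9 h (Evc2 and Ccnd1) and none in the other 8. In the fit of all mice, 8, 10 and 16 of the 41 other pathway genes listed differed from C57BL/6J in gKO, eRestore and nRestore. The shares of all genes there were 22.1%, 22.3% and 34.4%. Against 9 h, 25 and 23 of the 41 differed at 24 and 72 h, beside 61.7% and 55.4% of all genes. These counts are near the shares of all genes, and nothing is read from them. At 72 h against 24 h the calls were Scube1 and Gsk3b, a kinase that acts on Gli proteins.

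Across the 200 mice, levels were also compared after the mean of each of the 24 groups was taken away, which leaves the variation among mice of a group. Ptch1 followed Gli3 (Pearson r = 0.48) and Hhip (0.44) most closely among the members, and Gli2 followed Gli3 (0.33). Gli1 and Ptch1 had r = 0.23, and Gli1 and Hhip -0.07. The 10 genes most like Gli1 among 14618 genes with a mean of at least 1 CPM were Cbx7 (0.48), Cuedc1 (0.46), Dvl1 (0.46), Zfp219 (0.45), Cbs (0.43), Nkx6-2, Kif1c, 1700047M11Rik, Clk3 and Trim39 (all 0.42). All values come from the same libraries and share their depth and dissection. When the experiment was taken away as well, 5 of these 10 stayed among the 10 most like Gli1. Among the 16 marker lists, summed oligodendrocyte markers had r = 0.30 with Gli1 and summed neuronal markers -0.29, the most positive and most negative values of Gli1. Ependymal and hypothalamic neuron markers each had r = 0.27 with Gli1, and astrocyte markers -0.14. Hhip had r = 0.48 with summed endothelial markers, its most positive value, and 0.37 with OPC markers.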

How the data were processed

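RNA of one hemisphere per mouse, taken after PBS perfusion, was sequenced from poly(A)-selected libraries in paired-end mode. Per the labels and the study's methods, the authors aligned reads to GRCm39 with STAR and quantified them with Salmon in nf-core/rnaseq; the annotation release is not given in the sources used here. The authors deposited estimated counts (expected counts), not normalized, and TPM, scaled for transcript length and library size. The members and gene lists were chosen with earlier results of these data known.

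Estimated counts were rounded and tested with edgeR 4.0.16 in R 4.3.3 (TMM, robust quasi-likelihood F test), after a filter of 10 counts or more in a number of mice equal to the smallest group. Each strain and time had its own fit, with terms for sex and age (age alone for the male nRestore mice of 72 h). Strain and sex were tested, and times described, in a fit of 24 group means with sex and age. P-values were adjusted by Benjamini–Hochberg over all genes, with a threshold of 0.05. SEs were taken from the F statistics. Differences within experiments used log2(CPM + 0.1), correlations edgeR's log2 CPM with a prior count of 1. The scripts were tested on simulated counts. Alternatives were RLE factors, no count filter, DESeq2 1.42.0 with size factors or gene-length offsets, no covariates, experiment for age, one fit of all mice, leaving out each sham mouse and, added after the data were seen, strain and time contrasts over sham mice alone. Named were the members, up to 10 other pathway genes called in any CHI contrast by smallest p (Evc, outside this rule, was named after its values were seen, as were Ccnd1 at 24 h and the markers and overlapping genes named singly), the 10 genes most correlated with Gli1, and Il1r1. Nothing in the labels says that mice were pooled or split, so each mouse was taken as 1 replicate.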

Additional observations from a re-analysis of the deposited data

Results flagged for a closer look

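Among the combinations of a member and a group of 4 to 10 mice, 9 (6.25% of those tested) held a mouse whose gap to the nearest other mouse exceeded the 95% limit of Dixon's test, and chance gives about 1 in 20. In sham mice labelled IL-1R1 nRestore at 9 h, the highest of 4 had 12.6 CPM Gli3 and the highest of 4 had 20.3 CPM Hhip. Sufu was 8.94 CPM in the lowest of 5 sham mice of that strain at 24 h, and Hhip was 9.13 CPM in the lowest of its 6 CHI mice at 9 h. In C57BL/6J sham mice, Ptch1 was 91.8 CPM in the highest of 6 at 72 h, and Smo was 8.26 CPM in the lowest of 6 at 9 h. Hhip was 8.97 CPM in the lowest of 6 sham mice labelled IL-1R1 eRestore at 9 h and 8.33 CPM in the lowest of 6 sham mice labelled IL-1R1 gKO at 72 h. Boc was 12.5 CPM in the lowest of 9 CHI mice labelled IL-1R1 eRestore at 24 h. Neither Gli1 nor Ptch1 had such a mouse at 24 h in the groups of 4 to 10 mice, and the 14 C57BL/6J CHI mice were too many for this test.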

How the results depend on the processing

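The calls of CHI against sham in C57BL/6J mice, 5 of members and 7 of other pathway genes over 3 times, stayed within 1.5 times under all alternatives run. Leaving out each sham mouse gave 4 to 6 member calls and 6 to 8 other calls there, 0 to 0 of both in gKO, 0 to 2 and 1 to 6 in eRestore, and 0 to 1 of both in nRestore. Members called in eRestore went from 0 to 1 with DESeq2 size factors, gene-length offsets, experiment in place of age, and one fit of all mice. In nRestore they went from 0 to 1 without the count filter and with DESeq2 size factors. Other pathway genes called went from 0 to 2 in gKO in the fit of all mice, and from 5 to 1 without covariates and to 3 with experiment for age in eRestore. In nRestore they went from 0 to 2 without the filter, with DESeq2 size factors, without covariates, with experiment for age and in the fit of all mice, and to 1 with gene-length offsets. Members called in gKO against C57BL/6J went from 2 to 1 without the filter, in nRestore against C57BL/6J from 3 to 1 with experiment for age, and at 72 h against 9 h from 5 to 9 without age. In the sham mice alone, a contrast chosen after seeing the data, members called went from 2 to 0 both in gKO and in eRestore against C57BL/6J. The cause was not tested. No value that was called changed sign. The fit of all mice was not rerun without single mice. No paired analysis was possible because the labels give no replicate numbers that mice of different groups share. Depth limits Gli1, which had as few as 10 estimated reads in a library.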
